A study of Mus musculus with 28 samples.

Results

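The proteasome is the protease that degrades ubiquitin-tagged proteins, and its subunits, activators and assembly chaperones carry the gene symbols Psma to Psmg followed by a digit. The 47 genes with such a symbol, alone on a probe set, were followed here, out of the 17097 genes measured in mouse CD4+ T cells. Each was read through the brightest of its probe sets (74 in all for the 47 genes). A gene without such a probe set is left out, and Psmc6, for example, is not among the 47. By role they comprised 8 genes of the 20S alpha ring, 4 structural genes of the 20S beta ring, 3 standard catalytic subunits (Psmb5, Psmb6 and Psmb7) and their 3 immunoproteasome counterparts (Psmb8, Psmb9 and Psmb10). The catalytic subunit of the thymoproteasome (Psmb11), 5 ATPases and 11 non-ATPases of the 19S cap, 2 chaperones of 19S assembly (Psmd5 and Psmd9) and 4 chaperones of 20S assembly (Psmg1 to Psmg4) were also included. The activators PA28 alpha and beta (Psme1 and Psme2), the nuclear activator PA28 gamma (Psme3) and the inhibitor Psmf1 completed the set, together with Psmc3ip and Psme3ip1, which are named for a proteasome gene but encode no subunit.

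Total CD4+ T cells were taken from spleens of female mice aged 12 weeks, and mRNA was measured on Affymetrix HT MG-430 PM arrays. The 3 strains were C57BL/6, B6.Sle1b, which carries the lupus-linked Sle1b interval on the C57BL/6 background, and Sle1b.BACSlamf6-H1 (Sle1b.BAC below), in which B6.Sle1b also carries an artificial chromosome whose name refers to the H1 form of Slamf6. Cells of each strain were unstimulated or had been held for 4 h or 24 h on plate-bound antibody to CD3 (0.1 µg/ml), which triggers the T cell receptor. The 26 arrays labelled biological gave 3 for every strain and time except C57BL/6 at 24 h, which had 2. These comparisons ask how proteasome transcripts differ after time on the antibody and between strains. The labels give no time in culture for the unstimulated cells, and each strain has a single unstimulated group. Effects of the antibody and of time in culture therefore cannot be told apart, and activation below means both.

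The 20S core is a barrel of outer alpha rings and inner beta rings, and the 19S cap recognises, unfolds and feeds in ubiquitin-tagged substrates. In lymphocytes, and in most cells exposed to interferon gamma, newly assembled barrels take up Psmb8 (LMP7), Psmb9 (LMP2) and Psmb10 (MECL-1) in place of Psmb5, Psmb6 and Psmb7. The resulting immunoproteasome, often capped by PA28 alpha and beta, yields peptides suited to MHC class I and helps to clear damaged proteins. The standard subunits of the complex are known to be transcribed in concert, whereas the immunoproteasome genes respond to interferon.

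The 75th percentile of intensity lay between 34.2 and 53.3 across arrays. The lowest values belonged to C57BL/6 unstimulated replicate 2, B6.Sle1b unstimulated replicate 3 and Sle1b.BAC 4 h replicate 2 (the 3 dim arrays below). B6.Sle1b 24 h replicate 3 was about as dim (35.63, against 35.61 for B6.Sle1b unstimulated replicate 3). It is not among the 3 and stayed in wherever they were left out together. The 7 measured T cell genes (Cd4, Cd3e, Cd3d, Cd3g, Cd5, Thy1 and Cd28) summed to between 5546 and 8205 (linear intensity). The 2 CD8 genes summed to between 33.0 and 58.6, with Cd8a near background in the 9 groups. Of the 7, only Cd4 is particular to CD4 T cells, so these sums do not tell CD4 from CD8 T cells. Group means of log2 intensity were 5.43 to 6.30 for Cd4 and 4.82 to 5.44 for Cd8b1. Genes of other cells were detectable. The 9 B cell genes summed to between 859 and 2461, the 6 neutrophil genes to between 59.9 and 1105 and the 2 erythroid genes to between 183 and 3797. Some of these differed after time on the antibody. At 24 h Hba-a1, a globin gene, fell by 1.43 and the neutrophil gene Mpo by 2.40. The B cell genes Cd79b and Blk fell by 1.03 and 1.21, and the macrophage gene Lyz2 rose by 1.26. The lists did not move as blocks. The B cell genes Ms4a1 and H2-Ab1 rose by 0.66 and 0.49, and the macrophage gene Cd14 fell by 0.35. The neutrophil genes S100a8 and S100a9 differed by 0.13 and -0.28 without passing the test. Their part in the proteasome values was not tested. In a bulk sample, fewer cells of a type and less RNA per cell cannot be told apart. Psma8, a testis alpha subunit, was at or under background in all 9 groups, and Psmb11 was so in 8 of them, so neither gave a usable level.

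Proteasome transcripts were broadly higher after 24 h on the antibody to CD3. At 24 h against unstimulated cells, averaged over the 3 strains, 43 of the 47 genes were higher at an adjusted p under 0.05 in limma, where 22.9% of all genes were higher. The median log2 difference of the 47 genes was 0.92, against 0.06 for all genes. A single member was lower, namely Psme3ip1 (-0.29 ± 0.10, SE), where 17.4% of all genes were lower. The remaining 3 were Psma8 and Psmb11, at background, and Psmb1, a structural subunit of the beta ring, whose difference was 0.11 ± 0.08 (adjusted p = 0.313). For 37 of the 47 genes, every array at 24 h lay above every unstimulated array, as it did for 13.1% of all genes. The call of Psme3ip1 was lost with each array centred on its median (adjusted p = 0.0809) and when any of 7 of the 26 arrays was left out.

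The 5 largest rises at 24 h belonged to Psmc3ip, Psmg1, Psmd13, Psmg3 and Psme3. Psmc3ip, whose product acts in homologous recombination, rose by a log2 difference of 2.31 ± 0.10 (adjusted p = 3.65e-14). Psmg1, a chaperone of alpha ring assembly, had log2 intensities of 6.79 to 7.30 (median 6.99) in the 9 unstimulated arrays, 7.22 to 7.90 (median 7.49) in the 9 arrays at 4 h and 9.10 to 9.35 (median 9.18) in the 8 arrays at 24 h. Its arrays at 24 h stood clear of all others, and the difference from unstimulated cells was 2.21 ± 0.08 (adjusted p = 9.16e-16), a 4.62-fold rise. Psmd13, a scaffold subunit of the lid of the 19S cap, rose by 1.78 ± 0.12, Psmg3 by 1.72 ± 0.09 and Psme3 by 1.71 ± 0.10. All 4 of the 20S assembly chaperones rose by 1.34 or more (Psmg2 1.45 ± 0.08, Psmg4 1.34 ± 0.08).

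Within the 20S core, 7 of the 8 alpha genes rose at 24 h, by 0.60 (Psma3) to 1.05 (Psma5). Among the structural beta genes Psmb2 (0.78), Psmb3 (0.96) and Psmb4 (0.44) rose. The 3 standard catalytic subunits rose by 1.19 (Psmb5, the chymotrypsin-like site), 0.66 (Psmb6, the caspase-like site) and 0.71 (Psmb7, the trypsin-like site). In the 19S cap, the 5 ATPases rose by 0.52 (Psmc2 and Psmc4) to 0.98 (Psmc5), and the 11 non-ATPases by 0.19 (Psmd4, a ubiquitin receptor) to 1.78 (Psmd13). Psmd14, the deubiquitinase of the lid, rose by 0.99 ± 0.05, Psmd3 by 1.58 ± 0.13 and Psmd7 by 1.35 ± 0.12. The 19S assembly chaperones Psmd5 and Psmd9 rose by 0.31 and 0.51, and the inhibitor Psmf1 by 0.42.

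Some genes have other probe sets that went the other way. A second probe set of Psmd9, above background in all but 1 group, fell by 0.77 at 24 h, and a dimmer set of Psmd4 fell by 0.25. Other sets of Psmd7, Psmf1 and Psmd4 lay between -0.25 and -0.01 without passing the test. For Psma1 the pair of other sets, at background in 7 of the 9 groups, differed by -0.37 and -0.70 (adjusted p = 0.0726 and 0.0159). With the mean of all probe sets in place of the brightest, the 24 h differences of Psma1 (-0.053), Psmd4 (-0.022) and Psmd9 (-0.038) were near 0.

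At 4 h the change was smaller and was led by the immunoproteasome. Against unstimulated cells, 23 of the 47 genes were higher, where 8.15% of all genes were higher, and the median log2 difference of the 47 was 0.23 against 0.02 for all genes. Psme3ip1 alone was lower (-0.30 ± 0.10), where 10.1% of all genes were lower, and its call was lost when median centred (adjusted p = 0.0948), with only the compared groups fitted (0.0902) and without any of 10 of the 26 arrays. The 5 largest rises were those of Psmb9, Psmb10, Psmb8, Psme2 and Psma7. In 6 genes every array at 4 h lay above every unstimulated array, and these were Psmb8, Psmb9, Psmb10, Psme1, Psme2 and Psmd14. Over all genes the share was 2.21%.

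Psmb9 had log2 intensities of 7.94 to 8.74 (median 8.41) in unstimulated cells, 9.64 to 10.03 (median 9.88) at 4 h and 9.68 to 9.98 (median 9.87) at 24 h. The later times overlapped each other and lay wholly above unstimulated cells. The log2 difference was 1.46 ± 0.07 at 4 h (adjusted p = 1.6e-12, a 2.75-fold rise) and 1.45 ± 0.08 at 24 h, and between 4 h and 24 h it was -0.01 ± 0.08 (adjusted p = 0.964). Psmb9 has a second probe set of nearly the same brightness (mean log2 9.32 against 9.36). That set rose by 0.92 ± 0.13 at 4 h, fell by 0.66 ± 0.14 from 4 h to 24 h, and at 24 h differed from unstimulated cells by 0.26 ± 0.14 (adjusted p = 0.150). Both sets were thus higher at 4 h, and they differed on how much of the rise was left at 24 h.

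Psmb10 lay at 8.25 to 8.73 (median 8.52) in unstimulated cells, 9.27 to 9.85 (median 9.58) at 4 h and 9.48 to 9.79 (median 9.63) at 24 h. As for Psmb9, the arrays at 4 h and 24 h overlapped. Its log2 difference was 1.07 ± 0.06 at 4 h and 1.15 ± 0.06 at 24 h, with 0.08 ± 0.06 between those times (adjusted p = 0.406). Psmb8 rose in steps: its arrays lay at 9.25 to 9.62 (median 9.38), then 10.14 to 10.59 (median 10.36), then 10.81 to 10.99 (median 10.92), and no array of a later time overlapped an earlier one. Its differences from unstimulated cells were 0.93 ± 0.06 at 4 h and 1.51 ± 0.06 at 24 h (adjusted p = 6.79e-15, a 2.85-fold rise).

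The PA28 genes rose alongside. Psme2 (PA28 beta) lay at 9.82 to 10.17 (median 10.08) in unstimulated cells, 10.65 to 11.02 (median 10.76) at 4 h and 10.92 to 11.28 (median 11.09) at 24 h, and rose by 0.75 ± 0.05 and 1.06 ± 0.05. Psme1 (PA28 alpha) lay at 10.15 to 10.58 (median 10.42), 10.66 to 11.04 (median 10.97) and 11.31 to 11.46 (median 11.38), and rose by 0.53 ± 0.06 to 4 h and by a further 0.47 ± 0.06 to 24 h. The arrays of Psme1 were separate at the 3 times, whereas those of Psme2 at 4 h and 24 h overlapped in part.

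**Figure D1:**
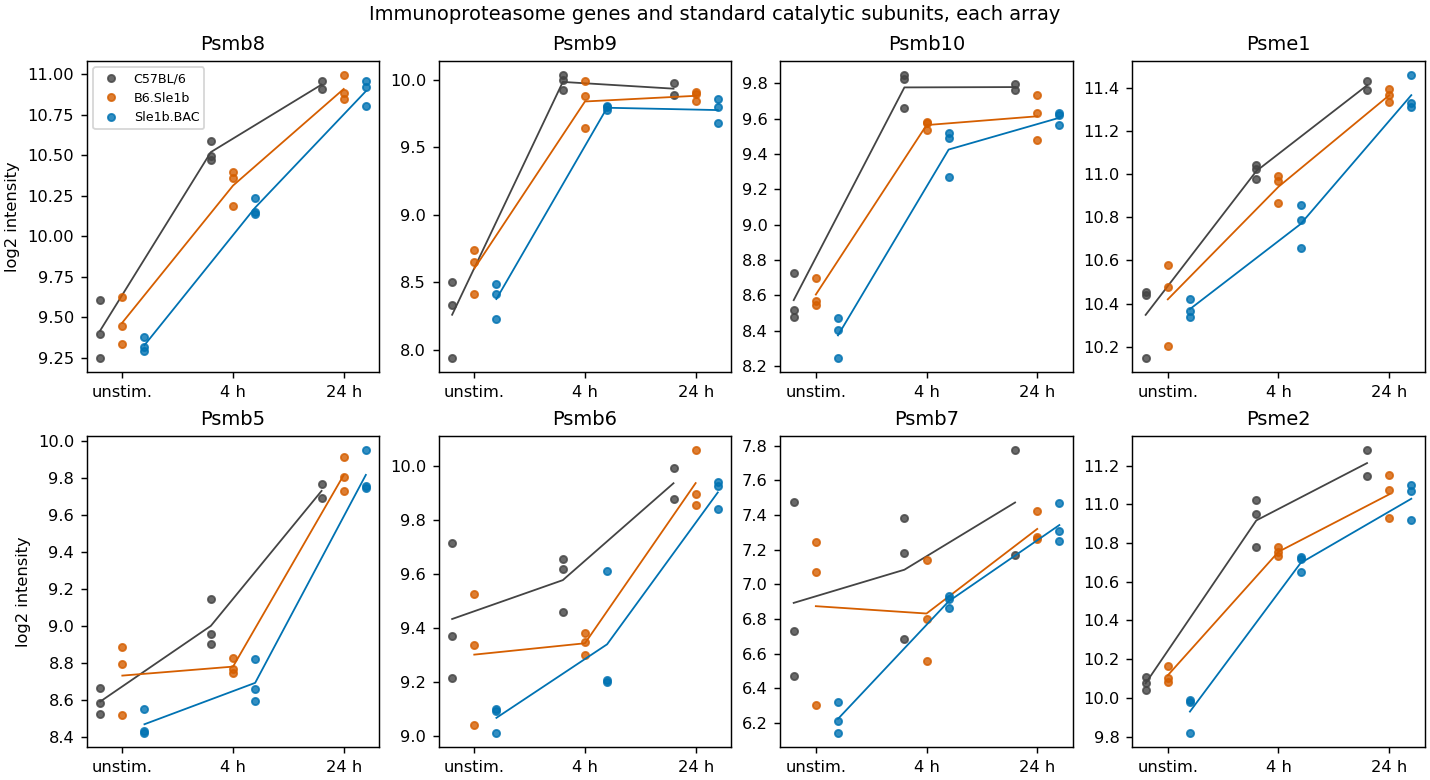
Log2 intensity of Psmb8, Psmb9, Psmb10, Psme1, Psme2 and the standard catalytic subunits Psmb5, Psmb6 and Psmb7, with 1 point per array, colours for the 3 strains and lines through the group means over time. Psmb9 and Psmb10 were close to their 24 h level at 4 h, while most of the rise of Psmb5 (medians 8.55, 8.82 and 9.76) came after 4 h.

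The standard catalytic subunits followed a later course. Psmb5 lay at 8.42 to 8.88 (median 8.55) in unstimulated cells, 8.59 to 9.15 (median 8.82) at 4 h and 9.69 to 9.95 (median 9.76) at 24 h, with a rise of 0.23 ± 0.06 at 4 h and 1.19 ± 0.06 at 24 h. Psmb6 lay at 9.01 to 9.72 (median 9.21), 9.20 to 9.65 (median 9.38) and 9.84 to 10.06 (median 9.91). For both, the arrays at 24 h were separate and those at 4 h overlapped unstimulated cells. Psmb7 lay at 6.14 to 7.48 (median 6.47), 6.56 to 7.38 (median 6.91) and 7.17 to 7.77 (median 7.29), so that even the 24 h arrays overlapped unstimulated cells. At 4 h the differences of Psmb6 (0.15 ± 0.08, adjusted p = 0.217) and Psmb7 (0.28 ± 0.14, adjusted p = 0.214) did not pass the test. Without the 3 dim arrays they did (0.19 for Psmb6 and 0.43 for Psmb7, adjusted p = 0.023 and 0.0135), as did Psmb7 without C57BL/6 unstimulated replicate 2 alone (0.37, adjusted p = 0.0364).

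The ratio of each immunoproteasome subunit to the standard subunit it replaces was compared within arrays, so that only changes in the ratio were read. At 4 h the log2 ratio rose by 0.71 for Psmb8 over Psmb5, 1.31 for Psmb9 over Psmb6 and 0.80 for Psmb10 over Psmb7, or 1.63-fold, 2.48-fold and 1.74-fold. Each gave p = 0.00025 in a two-sided exact permutation test of the times within strains, the smallest that the 8000 rearrangements allow (adjusted p = 0.000375 over 6 tests). At 24 h the ratios stood 0.32 (exact permutation p = 0.00125, adjusted 0.0015), 0.79 (p = 0.00025, adjusted 0.000375) and 0.43 (p = 0.0435, adjusted 0.0435) above unstimulated cells, with 4000 rearrangements. In each of the 3 strains the 3 ratios were higher at 4 h than at 24 h, and higher at 24 h than in unstimulated cells.

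The excess at 24 h depended on the choice of probe sets and, for the third pair, on single arrays. With the mean of all probe sets the 24 h change was -0.012 for Psmb8 over Psmb5 and -0.078 for Psmb9 over Psmb6, for which Psmb8 brings in a set at background in 6 groups, and Psmb9 such a set and the second bright one, which stood 0.26 above unstimulated cells at 24 h. For Psmb10 over Psmb7, leaving out any of 11 of the 26 arrays took the adjusted p above 0.05. In unstimulated cells that ratio was lowest in C57BL/6 replicate 2 (0.998), a dim array in which Psmb7 was brightest (7.48 against 6.47 and 6.73 in the other C57BL/6 arrays).

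**Figure D2:**
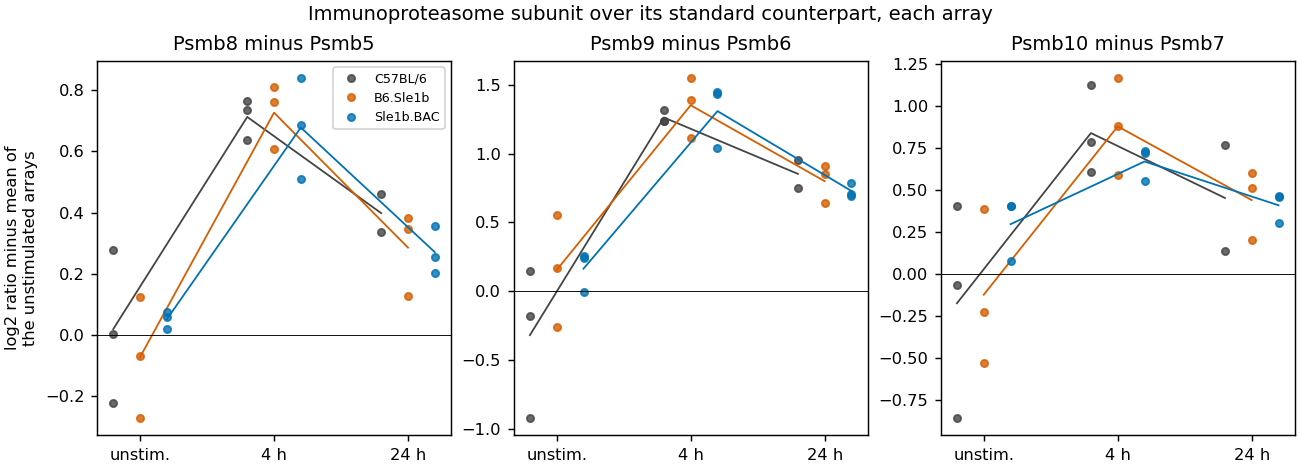
Log2 ratio of Psmb8 to Psmb5, Psmb9 to Psmb6 and Psmb10 to Psmb7 in each array, minus the mean of the 9 unstimulated arrays, by time, with colours for strains and lines through group means. The mean change was 0.71, 1.31 and 0.80 at 4 h and 0.32, 0.79 and 0.43 at 24 h.

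Timing was compared for every gene by the change up to 4 h minus the change from 4 h to 24 h, a contrast chosen after the counts at each time had been seen. It was above 0 and called for 4 of the 5 genes Psmb8, Psmb9, Psmb10, Psme1 and Psme2, where 8.70% of all genes were, and for none of the other 42 (27 of the 42 had an unadjusted p under 0.05 in limma, all of them below 0). The values were 1.47 ± 0.13 for Psmb9, 0.99 ± 0.10 for Psmb10, 0.44 ± 0.09 for Psme2 and 0.36 ± 0.10 for Psmb8 (adjusted p = 0.0122). That of Psmb8 did not pass with each array centred on its median (0.32, adjusted p = 0.0816) or with the mean of all probe sets (0.19, adjusted p = 0.131). Psme1 had 0.05 ± 0.10 (adjusted p = 0.832), so its change was about evenly split.

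The contrast was called below 0, meaning a larger late change, for 23 of the other 42 genes, where 15.5% of all genes were below 0. Among these were all 4 of the 20S assembly chaperones (Psmg3 -1.53 ± 0.15, Psmg2 -1.23 ± 0.13, Psmg1 -1.19 ± 0.13, Psmg4 -0.43 ± 0.14) and 9 of the 11 non-ATPases, led by Psmd3 (-1.55 ± 0.22), Psmd7 (-1.28 ± 0.20) and Psmd13 (-1.13 ± 0.21). The call of Psmg4 was lost after a second quantile normalization (-0.32, adjusted p = 0.210), with all probe sets (0.0765), with array weights (0.0734) and without C57BL/6 4 h replicate 1 or 3, B6.Sle1b 4 h replicate 3 or Sle1b.BAC 4 h replicate 3. Those of Psmd14, Psmf1, Psmd5 and Psmb2 were lost when any of 18, 18, 9 and 7 of the 26 arrays was left out, and that of Psmc2 without 1. Psmb5 had -0.74 ± 0.11 and Psmc5, an ATPase of the cap, -0.80 ± 0.14. Of the alpha genes only Psma6 was called (-0.48 ± 0.09), and Psma2, Psma3, Psma4 and Psma7 lay between 0.02 and 0.29.

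Stated as a share, the log2 change present at 4 h was 52.7% to 101% of the 24 h change for the 5 genes (median 70.9%). For the 38 others that were higher at 24 h it ran from -30.7% to 74.5% (median 23.1%), with 5 over 50% (Psma2, Psma3, Psma4, Psma7 and Psmb4). The median was 15.8% for all 3917 genes higher at 24 h. From 4 h to 24 h, 40 of the 47 genes were higher, where 20.5% of all genes were higher, and none was lower. The median difference over the 47 genes was 0.56. The largest of these late rises were those of Psmc3ip (1.91 ± 0.10), Psmg1 (1.70 ± 0.08), Psmg3 (1.62 ± 0.09), Psmd3 (1.57 ± 0.13) and Psmd13 (1.46 ± 0.12).

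**Figure D3:**
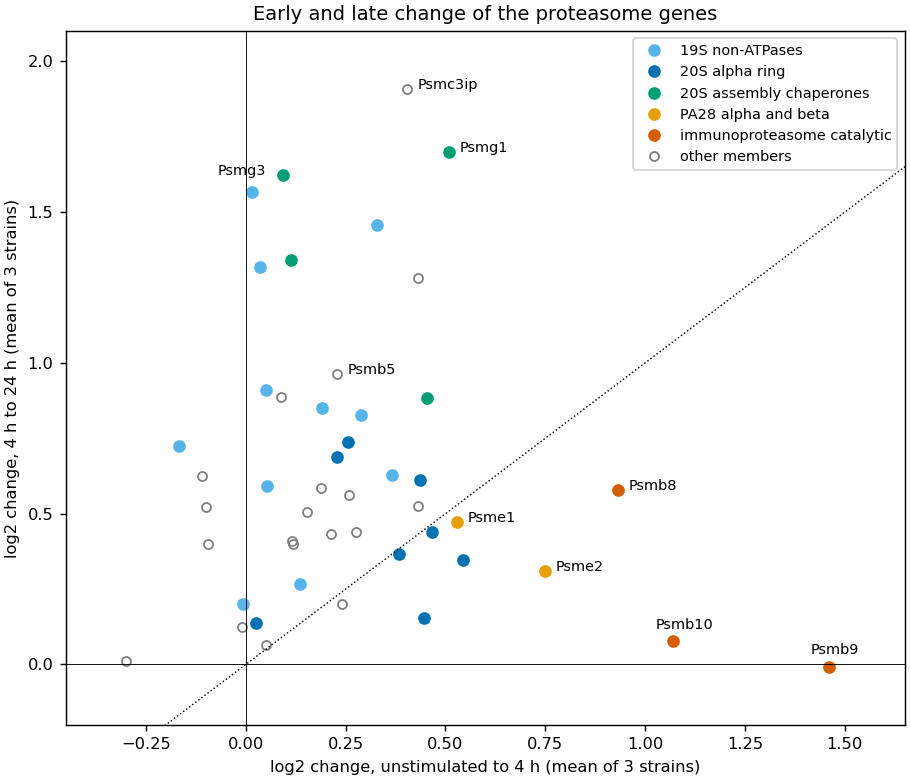
Log2 change from unstimulated to 4 h (horizontal) and from 4 h to 24 h (vertical) for the 47 genes, mean of the 3 strains, with colours for roles and a dotted line where both are equal. Psmb8, Psmb9, Psmb10 and Psme2 lie below the line and the 20S assembly chaperones above it, with the largest late change at Psmc3ip (1.91).

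By role, the rise at 4 h was called in 3 of 3 immunoproteasome catalytic genes and 2 of 2 PA28 genes. It was called in 6 of 8 alpha genes (Psma7 0.55 ± 0.08, the largest) and 2 of 4 structural beta genes (Psmb3 0.43 and Psmb4 0.24). It was called in 1 of 3 standard catalytic genes, 2 of 5 ATPases and 3 of 11 non-ATPases (Psmd14, Psmd12 and Psmd1). The calls of Psmd1 and Psmb3 were lost with only the compared groups fitted (adjusted p = 0.0696 and 0.0783) and when any of 17 and 9 of the 26 arrays, respectively, was left out, and that of Psmd1 also when median centred (0.178). Among the 20S assembly chaperones Psmg1 (0.51 ± 0.07) and Psmg4 (0.45 ± 0.08) were called, and Psme3 rose by 0.43 ± 0.09. The 19S chaperones Psmd5 (-0.09) and Psmd9 (-0.11) and the inhibitor Psmf1 (-0.10) did not pass the test.

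The 150 bases upstream of the catalytic genes are shown for the pairs Psmb8 with Psmb5 and Psmb9 with Psmb6, for which windows of both genes were found (Psmb10 over Psmb7, whose ratio also rose, is not shown). They are from RefSeq (GRCm38.p6), 5′ to 3′ on the strand of the gene and ending at the base before its start. Psmb8 lies at chr17:34198045-34198194 (plus strand), Psmb9 at chr17:34187331-34187480 (minus strand), Psmb5 at chr14:54617996-54618145 (minus strand) and Psmb6 at chr11:70525207-70525356 (plus strand). Capitals mark the gamma-activated site in Psmb8, the CCAAT box in Psmb9 and the antioxidant response element in Psmb5 and Psmb6, as defined after the sequences.
Psmb8: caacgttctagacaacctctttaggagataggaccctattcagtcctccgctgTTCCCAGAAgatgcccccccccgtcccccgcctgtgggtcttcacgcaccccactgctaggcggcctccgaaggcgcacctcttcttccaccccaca
Psmb9: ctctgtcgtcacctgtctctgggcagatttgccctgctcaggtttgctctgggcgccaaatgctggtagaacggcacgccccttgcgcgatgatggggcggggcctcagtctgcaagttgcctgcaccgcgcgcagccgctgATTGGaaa
Psmb5: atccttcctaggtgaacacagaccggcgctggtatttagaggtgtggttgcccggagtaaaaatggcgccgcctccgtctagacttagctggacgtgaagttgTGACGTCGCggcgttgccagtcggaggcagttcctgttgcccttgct
Psmb6: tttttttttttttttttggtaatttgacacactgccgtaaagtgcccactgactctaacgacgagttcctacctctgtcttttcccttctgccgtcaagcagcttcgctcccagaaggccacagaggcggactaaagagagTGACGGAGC

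Windows of 250 bases before to 50 after the start were found for 39 of the 47 genes and searched on both strands for 4 motifs. The interferon-stimulated response element (GAAA, any 2 bases, GAAA) was in 5 of the 39 genes (12.8%, against 3.99% of all 27025 genes and 3.44% of their promoters), and the gamma-activated site (TTCNNNGAA) in 3 (7.69%, against 9.55% and 8.30%). The antioxidant response element (TGACNNNGC) was in 4 (10.3%, against 14.0% and 12.4%) and the CCAAT box in 15 (38.5%, against 41.1% and 37.4%). The interferon element was in 1 of the 5 immunoproteasome and PA28 genes and in 4 of the 34 others found (Psmb3, Psmd4, Psmd9 and Psmg4). The 1 was Psme1, with a match (TTTCGCTTTC) from base 9 after the start. The gamma-activated site of Psmb8 began 97 bases before the start. Psmb10 and Psme2 had none of the 4 motifs in this window. Psmb5 and Psmb6 held the antioxidant element from 47 and 9 bases before the start. A match of letters describes the window only.

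Genes around the proteasome were read from lists of pathway members. Of 13 partners and regulators measured, Pomp, the chaperone that matures 20S precursors, was the 1 gene that rose at 4 h (0.66 ± 0.10). Over all genes 8.15% were higher at that time. At 24 h 7 were higher and 1 lower, where 22.9% and 17.4% of all genes were. Pomp then stood at 1.27 ± 0.10, the 19S deubiquitinases Uchl5 and Usp14 at 1.47 ± 0.07 and 1.08 ± 0.15, and Txnl1, a thioredoxin of the cap, at 0.91 ± 0.08. Nfe2l2, a transcription factor of the antioxidant response, fell by 0.63 at 24 h, and Nfe2l1, a transcription factor of proteasome genes, differed by -0.15 ± 0.10 (adjusted p = 0.239).

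Genes of class I antigen presentation did not move as a block. Of 9 measured, 4 were higher and 1 lower at 4 h, where 8.15% and 10.1% of all genes were. Those that rose were Nlrc5, the class I transactivator (1.08 ± 0.14), Tapbp (0.82 ± 0.10), Erap1 (0.68 ± 0.09) and Tapbpl (0.59 ± 0.11). Tapbp, Erap1 and Tapbpl serve peptide loading and trimming. The chaperone Calr fell by 0.43. The class I heavy chains H2-K1 and H2-D1 were near 0 at 4 h (0.01 and -0.05) and fell by 0.31 and 0.41 at 24 h. Interferon-response genes were high early: 10 of 12 genes of the interferon gamma list rose at 4 h, when 8.15% of all genes were higher. From 4 h to 24 h 9 of the 12 fell, when 14.1% of all genes were lower. Irf1, a transcription factor of the immunoproteasome genes, was 0.86 ± 0.11 higher at 4 h and -0.11 ± 0.11 at 24 h. Of the 16 type I interferon genes, 10 rose at 4 h (8.15% of all genes) and 14 fell between 4 h and 24 h (14.1% of all genes). Whether these lists bear on the early rise of Psmb8, Psmb9 and Psmb10 was not tested.

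The rise over time on the antibody was seen in each strain. At 4 h the number of the 47 genes called higher was 13 for C57BL/6, 7 for B6.Sle1b and 15 for Sle1b.BAC, where 4.08%, 2.57% and 4.22% of all genes were higher. The 5 immunoproteasome and PA28 genes were among them in all 3 strains. Psmb9 rose by 1.73, 1.24 and 1.42 in that order of strains, Psmb10 by 1.20, 0.96 and 1.05, and Psmb8 by 1.10, 0.85 and 0.85. Psme2 rose by 0.84, 0.64 and 0.77, and Psme1 by 0.67, 0.52 and 0.39. With only the compared groups fitted, Psme1 passed neither in B6.Sle1b (adjusted p = 0.171) nor in Sle1b.BAC (0.0804). The smallest of these rises, Psme1 in Sle1b.BAC, passed no longer with each array centred on its median (0.33, adjusted p = 0.169) or when any of 4 arrays was left out, namely Sle1b.BAC unstimulated replicates 2 and 3 and 4 h replicates 1 and 3 (adjusted p = 0.0504 to 0.0528). The count of 13 in C57BL/6 fell to 5 or 6 without C57BL/6 unstimulated replicate 1 or 3 or 4 h replicate 2. The share of all genes called without those arrays was not counted.

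At 24 h the counts were 39, 38 and 40, where 15.7%, 14.8% and 17.2% of all genes were higher. The rise of Psmb8 was then 1.52, 1.44 and 1.57, and that of Psmb9 1.68, 1.28 and 1.40. In C57BL/6 the 24 h group had 2 arrays only.

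No proteasome gene differed between strains at an adjusted p under 0.05, in any of 12 strain contrasts or 6 tests of whether the response differed between strains. In B6.Sle1b against C57BL/6, 0 of 47 genes were called over the mean of the 3 times (0.333% of all genes called), in unstimulated cells (0.123%), at 4 h (0.0409%) or at 24 h (0.0409%). In Sle1b.BAC against B6.Sle1b the shares of all genes were 0.0819%, 0.0819%, 0% and 0% in that order, and in Sle1b.BAC against C57BL/6 they were 0.228%, 0.0585%, 0.0643% and 0.0351%. Of the tests of response, 5 called no gene at all (0%) and the other, Sle1b.BAC against B6.Sle1b at 24 h, called 0.00585%. At an unadjusted p under 0.05 over the mean of the times, limma gave 1, 4 and 15 of the 47 genes in the 3 pairs of strains, against 873, 1041 and 1172 of all 17097.

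The strain differences were small, with a lean towards lower values in Sle1b.BAC. Against C57BL/6, 42 of the 47 genes were below 0 over the mean of the times, with a median of -0.13, against -0.02 for all genes, of which 59.6% were below 0. Psmb10 had the smallest adjusted p, with -0.24 ± 0.06 (adjusted p = 0.150), followed by Psme2 at -0.18 ± 0.05 (0.285) and Psmg4 at -0.26 ± 0.08 (0.319). The 95% interval for Psmb10 ran from -0.37 to -0.12. It was called with 16 added before the log (adjusted p = 0.0281) and with array weights (0.0423).

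The lean was widest at 4 h. There Psmb10 was 9.66, 9.82 and 9.85 in the C57BL/6 arrays, 9.53, 9.58 and 9.58 in B6.Sle1b and 9.27, 9.49 and 9.52 in Sle1b.BAC. Psmb8 was 10.47, 10.59 and 10.50 in C57BL/6, 10.36, 10.39 and 10.18 in B6.Sle1b and 10.15, 10.14 and 10.24 in Sle1b.BAC. How many of all genes separate the strains as widely was not counted. The differences of Sle1b.BAC from C57BL/6 were -0.35 ± 0.10 for Psmb10 and -0.34 ± 0.10 for Psmb8 (adjusted p = 0.297 and 0.330). At 24 h they were -0.17 and -0.04.

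In unstimulated cells, Sle1b.BAC lay below B6.Sle1b in 37 of the 47 genes (59.2% of all genes), with a median of -0.19 against -0.04, and 14 had an unadjusted p under 0.05, against 1390 of all 17097 genes. Psmb7 was the most different of them at -0.65 ± 0.24 (adjusted p = 0.486), with 6.14, 6.32 and 6.21 in the Sle1b.BAC arrays and 7.07, 6.31 and 7.24 in B6.Sle1b. Psma2 (-0.34 ± 0.13, adjusted p = 0.486) and Psmd12 followed. Array weights, with which 23.5% of all genes were called in that contrast, called 35 of the 47 lower. The dim array of B6.Sle1b belongs to this comparison, and its part in the result was not tested beyond leaving it out, which gave 0 calls. By 24 h the median of the 47 genes in Sle1b.BAC against B6.Sle1b was 0.00.

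Unstimulated B6.Sle1b differed from C57BL/6 most in Psmb9, which was 8.65, 8.74 and 8.41 in its arrays and 8.50, 7.94 and 8.33 in C57BL/6 (0.34 ± 0.13, adjusted p = 0.896). The arrays overlapped. All 16 type I interferon genes were above 0 in that contrast, with a median of 0.87. Rsad2 and Mx1 were called, the only 2 of them, where 0.123% of all genes were. Mx1 was at or under background in 2 of the 9 groups. All 12 interferon gamma genes were above 0 (median 0.48, none called), including Ciita, which was at or under background in all 9 groups. The share of all genes above 0 in that contrast is not given beside these counts. The 9 B cell markers summed to 1687 to 2461 in unstimulated C57BL/6, 1263 to 1350 in B6.Sle1b and 963 to 1670 in Sle1b.BAC, and the 6 neutrophil markers to 80.2 to 256, 120 to 690 and 214 to 1105. The 2 erythroid markers summed to 1362 to 3797, 3344 to 3748 and 818 to 2144, so that Sle1b.BAC lay wholly below B6.Sle1b. Over the mean of the times Hba-a1 differed by -1.39 ± 0.32 between those strains (adjusted p = 0.142). The part of these cells in the strain values was not tested.

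**Figure D4:**
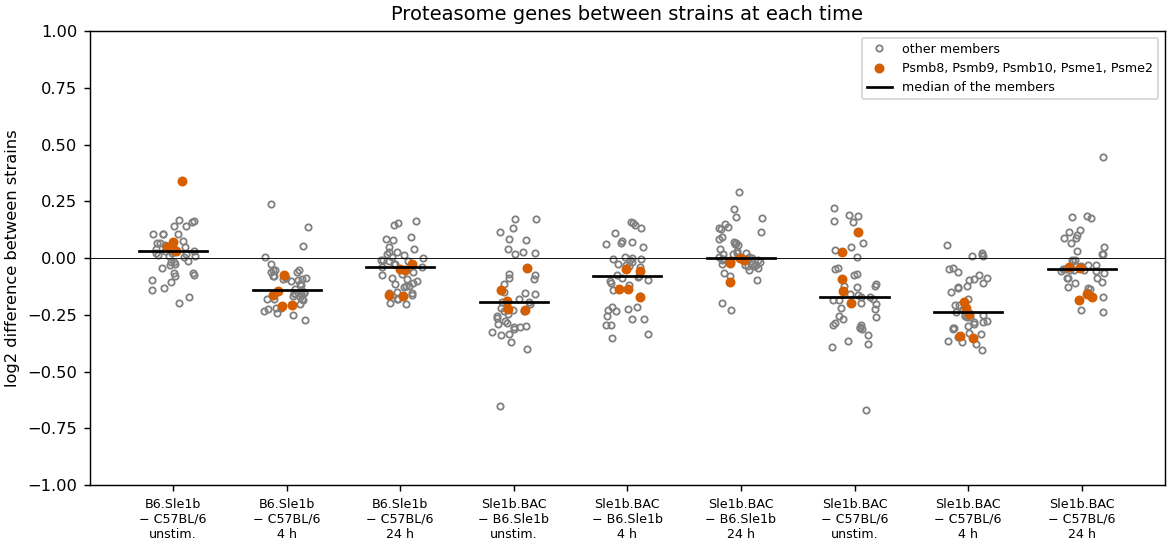
Log2 difference between strains for the 47 genes in each pair of strains and at each time, with Psmb8, Psmb9, Psmb10, Psme1 and Psme2 filled and a bar at the median of the 47. The median in Sle1b.BAC against C57BL/6 was -0.17 in unstimulated cells, -0.24 at 4 h and -0.05 at 24 h, and no gene passed the test.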

How the data were processed

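Deposited values are linear intensity values of 45141 probe sets on 28 arrays, made by the authors with RMA, per the submitters' processing notes (its version is not given in the sources used here). That method corrects background, quantile normalizes and summarises probes. Log2 was taken, with no filter and no pseudocount. Of 28898 probe sets with 1 platform symbol, the brightest per gene over the 26 biological arrays was used, and the 2 arrays labelled technical entered alternatives only. A model with 1 mean for each of 9 groups was fitted to all 26 arrays with limma 3.58.1 in R 4.3.3 (contrasts, eBayes), p-values were Benjamini-Hochberg adjusted over 17097 genes, and adjusted p under 0.05 was called. Ratios were tested by exact permutation. Background was the 95th percentile of 23 non-specific control probe sets per array. Each group held only 2 or 3 arrays, and what limits precision was not tested. Over the mean of the strains, 18.2% of all genes passed in the 4 h contrast with unstimulated cells. Without the 3 dim arrays the share was 28.5%. For the 24 h contrast the shares were 40.4% and 52.3%, in that order. The members and gene lists were chosen with earlier results of these data known. Separate animals per replicate are not stated in the labels, and p-values therefore reflect only how far these samples spread, part of which may be technical. Named genes were the immunoproteasome genes with their counterparts, the 5 largest changes of each activation contrast, members at background or with discordant probe sets, and the smallest adjusted p-values of strain contrasts, of which some are left out. The fit was tested on simulated data.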

Additional observations from a re-analysis of the deposited data

How the results depend on the processing

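Counts in this section are of calls in either direction. Over the mean of the strains the main counts were 24 genes at 4 h (18.2% of all genes called), 44 at 24 h (40.4%) and 40 between them (34.6%). These counts stayed within 1.5 times of those values under every setting run. The share of all genes moved too, to 30% at 4 h and 59.2% at 24 h with array weights. Leaving out 1 array gave 21 to 26 genes at 4 h, 42 to 44 at 24 h and 39 to 40 between them. Within strains at 4 h, the counts with only the compared groups fitted were 5 (C57BL/6, where 2.77% of all genes were called) and 4 (B6.Sle1b, 2.05%). That at 24 h in C57BL/6 was 25 (15.1%). The main counts in that order were 13 (7.04%), 7 (5.69%) and 39 (24.3%). Array weights, whose estimation stopped before convergence, gave 32 and 14 at 4 h in C57BL/6 and B6.Sle1b (27.7% and 26.3% of all genes). They gave 1 (Psmb10) in Sle1b.BAC against C57BL/6 over the mean of the times (0.339%). In unstimulated cells they gave 9 in B6.Sle1b against C57BL/6 (15.3%) and 35 in Sle1b.BAC against B6.Sle1b (23.5%). Without the 3 dim arrays C57BL/6 had 21 at 4 h (14.0%), and 16 added before log2 gave 1 in Sle1b.BAC against C57BL/6 over the mean of the times (0.386%). The cause was not tested. Leaving out 1 array gave 5 to 17 (C57BL/6), 5 to 7 (B6.Sle1b) and 11 to 18 (Sle1b.BAC) genes at 4 h, 29 to 40, 33 to 39 and 39 to 40 at 24 h, and 0 in each strain contrast over the mean of the times or in unstimulated cells. The main count for Sle1b.BAC at 4 h was 16 (10.6%). Shares of all genes called were not counted for fits without a single array, so these ranges describe the members only.

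The 24 h ratio change turned with the mean of all probe sets for Psmb8 over Psmb5 (-0.012) and Psmb9 over Psmb6 (-0.078). For Psmb10 over Psmb7 it was 0.34 after a second quantile normalization, 0.43 with all probe sets, 0.25 without the dim arrays and 0.45 with the replicate block, at adjusted p = 0.155, 0.0653, 0.127 and 0.125 in the exact permutation test. Ranges without 1 array were 0.66 to 0.75, 1.21 to 1.39 and 0.68 to 0.89 at 4 h for the 3 ratios, and 0.28 to 0.36, 0.69 to 0.87 and 0.32 to 0.54 at 24 h. Replicate numbers were not taken to pair the samples, since not every correlation of same-numbered arrays was over 0.1: 45 of 100 were (range -0.81 to 0.82), 15 of 25 within a strain (from -0.36, median 0.16), and 68 of 200 between other numbers. The replicate block moved no count by over 1.5 times.

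Of 7215 recomputed values for named genes, 7052 kept direction and side of the threshold, 141 lost and 13 gained it, and 9 changed sign. The last were, with all probe sets, Psma1 (-0.053), Psmd4 (-0.022) and Psmd9 (-0.038) at 24 h and Psmd4 (-0.0046) from 4 h to 24 h, and Psmb9 from 4 h to 24 h, which was -0.23 (adjusted p = 0.0234) with all probe sets and changed sign at values near 0 (0.0067 median centred, 0.0053 with brightness as covariate, and -0.041 to 0.017 when 1 array was left out, above 0 without C57BL/6 24 h replicate 1, B6.Sle1b 4 h replicate 2 or Sle1b.BAC 24 h replicate 3).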
